A study of Pinus pinaster with 14 samples.

Results

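In seedlings of maritime pine, the western Mediterranean conifer Pinus pinaster, the apical meristem and the root meristem were compared as 1 library each, which makes 2 of the 14 libraries of the series. Both were chosen by their tissue labels. Each tissue was cut by laser microdissection, which frees chosen cells from a frozen section under a microscope, out of soil-grown seedlings of the Oria provenance harvested 1 month after the shoot emerged. The 12 other libraries hold emerging needles, hypocotyl pith, and both vascular and ground tissue (mesophyll or cortex) from 5 organs, which are developing root, root, hypocotyl, cotyledons and young needles. All seedlings had the same provenance, age and culture, and no treatment or genotype differed between groups. The labels do not say how many seedlings gave a library, and libraries may share seedlings. With 1 library per meristem there was no test of the difference between them, and every count below describes these 2 libraries.

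A meristem is a group of small dividing cells at the tip of an axis. The apical meristem of the shoot gives rise to the stem and to needle primordia on its flanks, so emerging needles are its nearest product. The root meristem sits behind the root cap and gives rise to the cortex and vascular tissue of the growing root. Both keep a pool of undifferentiated cells, and in flowering plants many cell division genes are active in both while the regulators that set shoot or root identity differ. The deposited table names transcripts by assembly identifiers with no gene names, so the labels could not be checked against meristem marker genes and no pathway can be named.

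The apical meristem library held 1051246 reads and the root meristem library 1168436, within a series range of 519134 to 1536389. Reads were recovered from the deposited normalised read counts, in which 1 read is worth 1.33 in the apical meristem and 0.652 in the root meristem. Reads fell on 18193 transcripts in the apical meristem and on 14781 in the root meristem. When 1051246 reads were drawn from the root meristem, so that both had the same depth, the counts were 18193 and 14648. Of the 23493 transcripts in the table, 13116 had reads in both meristems, 5077 in the apical meristem alone, 1665 in the root meristem alone and 3635 in neither.

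Reads were more concentrated in the apical meristem. It took 184 transcripts to reach 50% of its reads and 470 to reach 50% of those of the root meristem. The 10 most abundant transcripts held 17.0% of the apical meristem reads (95% exact Clopper-Pearson interval 17.0 to 17.1%) and 8.97% of the root meristem reads (8.91 to 9.02%). These intervals reflect counting alone, since reads of amplified cDNA can be copies of 1 molecule. The 2 lists of 10 shared 3 transcripts.

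The question put to the 2 libraries was which transcripts separate the growing tip of the shoot from that of the root. A transcript was called higher in a meristem when its normalised read count + 5 was at least 4 times that in the other and it had 25 or more reads where it was higher. Among the 7870 transcripts with 25 or more reads in either meristem, 1753 were higher in the apical meristem (22.3%) and 764 in the root meristem (9.71%). A further 2830 (36.0%) lay within 2-fold. In the deposited scaling the differences were also wider on the apical side. The median log2 difference, on the log2(value + 5) scale, was 3.24 for transcripts higher in the apical meristem and -2.43 for those higher in the root meristem, against -0.27 over all 7870. A difference of 32-fold or more was reached by 144 transcripts higher in the apical meristem and 17 higher in the root meristem.

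Much of the apical meristem library lay in transcripts that were scarce in the root meristem. The 1753 transcripts held 47.8% of apical meristem reads (exact interval 47.7 to 47.9%) and 7.04% of root meristem reads (6.99 to 7.09%). The 764 held 0.866% of apical meristem reads (0.848 to 0.884%) and 12.3% of root meristem reads (12.3 to 12.4%). The rule itself places the reads of each set on its own side. A value of 1000 or more was reached by 104 of the 1753 in the apical meristem and by 8 of the 764 in the root meristem. With 1 read worth 1.33 in the apical meristem and 0.652 in the root meristem, that value takes fewer reads in the apical meristem. The contrast thus depends in part on the deposited scaling. Absence from the other library was common in both sets. Of the 1753, 579 had no read in the root meristem and 297 had 1 to 3. Of the 764, 182 had no read in the apical meristem and 196 had 1 to 3.

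**Figure D1:**
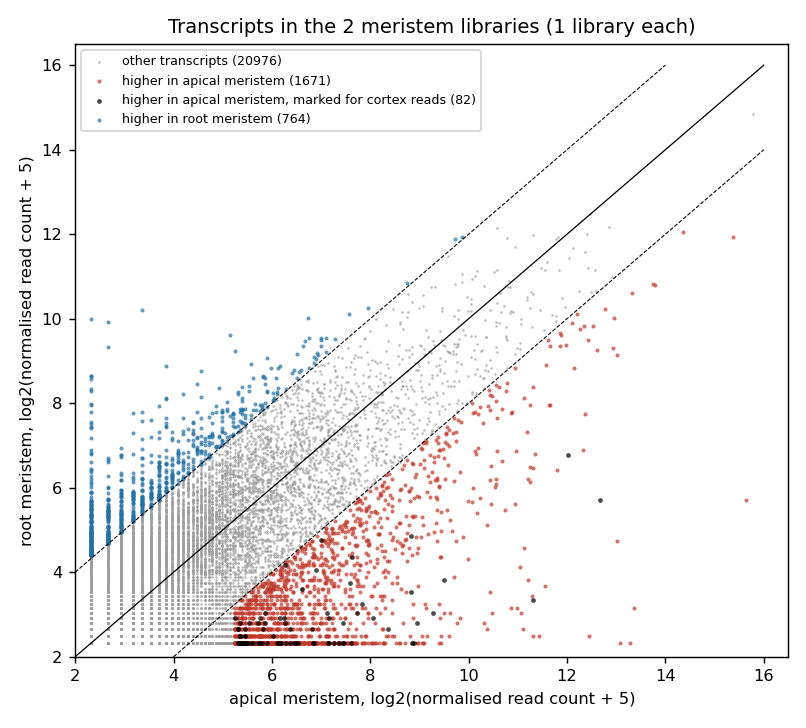
Each point is 1 of the 23493 transcripts, at its log2(normalised read count + 5) in the apical meristem (x axis) and the root meristem (y axis). The solid line marks equality and the dashed lines a 4-fold ratio. Transcripts higher in the apical meristem reach farther from the line than those higher in the root meristem, and the 82 black points, marked for cortex reads by the rule given in the text, lie among them, mostly at low root meristem values.

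The balance of the 2 sets depended on how the libraries were scaled to each other. The deposited scaling placed 69.6% of the called transcripts on the apical side. With reads divided by the library total (plain CPM) and no further factor, which moves the median log2 difference of transcripts with 25 or more reads in both meristems by -0.82, the numbers were 1330 and 1860, so 41.7% were on the apical side. The share was 60.6% with DESeq2 size factors, 50.3% after quantile normalisation, 45.3% without the 10 most abundant transcripts of each library and 58.4% when the median ratio of the 2814 transcripts with 25 or more reads in both was set to 1. Each of these alternatives lowered the apical meristem relative to the root meristem, so they mainly take transcripts off the apical side and add them on the root side. A total of 1324 of the 1753 were higher in the apical meristem under the deposited scaling, plain CPM, DESeq2 size factors, quantile normalisation and the median ratio alike. Which meristem has more preferential transcripts therefore cannot be read from the deposited values alone.

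The largest differences on the apical side were in unigene20028 and unigene35145, shown here with their level in every tissue because the identifiers carry no gene name. For unigene20028 there were 7498 reads in the apical meristem, a normalised read count of 9965, against 0 reads in the root meristem. With 3 reads as the limit for an absent transcript in the deposited scaling, it was at least 5096-fold higher in the apical meristem. This limit moves with the scaling, and the log2 difference of unigene20028 was 10.96 in the deposited scaling and 10.48 in plain CPM. Outside the meristems its highest values were 130 in emerging needles, 113 in hypocotyl cortex and 20.5 in young needle mesophyll, and 6 of the 12 other libraries had no read. unigene20028 was thus high in the apical meristem and low or absent elsewhere, with its second value 76.4 times lower.

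For unigene35145 there were 6517 reads in the apical meristem, a normalised read count of 8662, against 0 reads in the root meristem. By the same limit and in the deposited scaling, it was at least 4429-fold higher in the apical meristem. It stood at 235 in emerging needles, 97.7 in hypocotyl cortex and 29.1 in young needle vascular tissue, and 5 of the 12 other libraries had no read. Its second value was 36.9 times lower than that of the apical meristem. In both transcripts emerging needles came next, followed by hypocotyl cortex. Root vascular tissue and both developing root libraries had no read of either.

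On the root side the largest differences were in unigene9106 and unigene17517. For unigene9106 there were 0 reads in the apical meristem and 1566 in the root meristem, a normalised read count of 1021, so it was at least 256-fold lower in the apical meristem. Developing root cortex matched the root meristem at 1034, developing root vascular tissue had 2.07 from 2 reads, and the 10 other libraries had none. unigene9106 was therefore detected in 3 of the 14 libraries, all from the growing root.

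For unigene17517 there was 1 read in the apical meristem and 1482 in the root meristem, normalised read counts of 1.33 and 966. The root meristem value was 727 times that of the apical meristem, with an exact counting interval of 130 to 28728. This transcript was not centred on the meristem. It reached 5219 in developing root vascular tissue, 1917 in developing root cortex and 575 in root vascular tissue, with 8.88 in root cortex, and it had no read in the 8 remaining libraries, all of the shoot. It was the only named transcript that passed the filter of the root against shoot fit described further on, where it was higher in root by 6.74 ± 1.08 (SE) on the log2 scale (limma adjusted p = 6.5e-05). With no filter in that fit, the limma adjusted p was 0.109, and over the alternatives that gave a value it ran from 3.28e-10 to 0.109. With root vascular tissue or either developing root library left out, the transcript no longer passed the filter and had no value. unigene17517 thus passed the filter only through root libraries in which it was high. Its adjusted p is therefore no independent support for a difference between root and shoot.

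**Figure D2:**
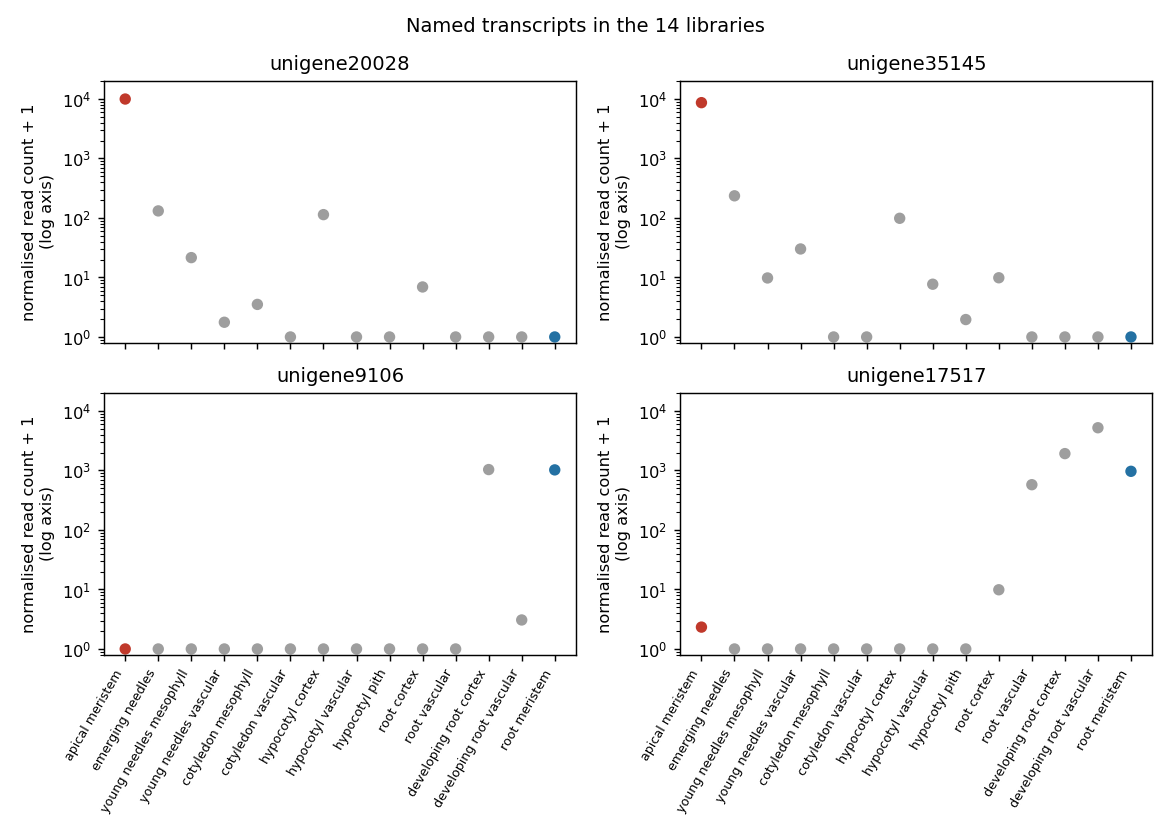
Normalised read count + 1 (log axis) of the 4 named transcripts in each of the 14 libraries, 1 point per library, with the apical meristem in red, the root meristem in blue and other tissues in grey. unigene20028 and unigene35145 have their highest point in the apical meristem and no read in the root meristem, while unigene9106 and unigene17517 are at 0 or 1 read in the apical meristem and high in the growing root.

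The 12 libraries that the comparison does not use showed where else these transcripts were found. Transcripts higher in the apical meristem were found mostly in hypocotyl cortex, the ground tissue of the young stem. Their median normalised read count was 79.7 in the apical meristem, 56.4 in hypocotyl cortex, 12.5 in hypocotyl pith, 11.8 in root cortex and 2.61 in the root meristem. In emerging needles, the product of the apical meristem, it was 2.83. Over all 7870 transcripts the medians were 37.2 in the apical meristem, 11.3 in hypocotyl cortex, 17.8 in root cortex, 21.3 in emerging needles and 30.6 in the root meristem. Of the tissues named here, hypocotyl cortex was the one outside the meristems whose median for the 1753 lay above its median over all 7870. In plain CPM the medians of the 1753 were 57.1 in the apical meristem, 28.9 in hypocotyl cortex, 6.91 in root cortex and 3.42 in the root meristem.

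Hypocotyl cortex was the highest of the other 12 libraries for 745 of the 1753 transcripts (42.5%), against 12.02% of the 7870. Root cortex followed with 193 (11.01%, against 9.49%) and root vascular tissue with 176 (10.0%, against 13.1%). Emerging needles were highest for 74 (4.22%, against 12.3%). In plain CPM the share for hypocotyl cortex was 32.7%. Over all 14 libraries, the apical meristem itself was highest for 865 of the 1753 and hypocotyl cortex for 479. The apical meristem was 4-fold or more above each of the 13 other libraries for 369.

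**Figure D3:**
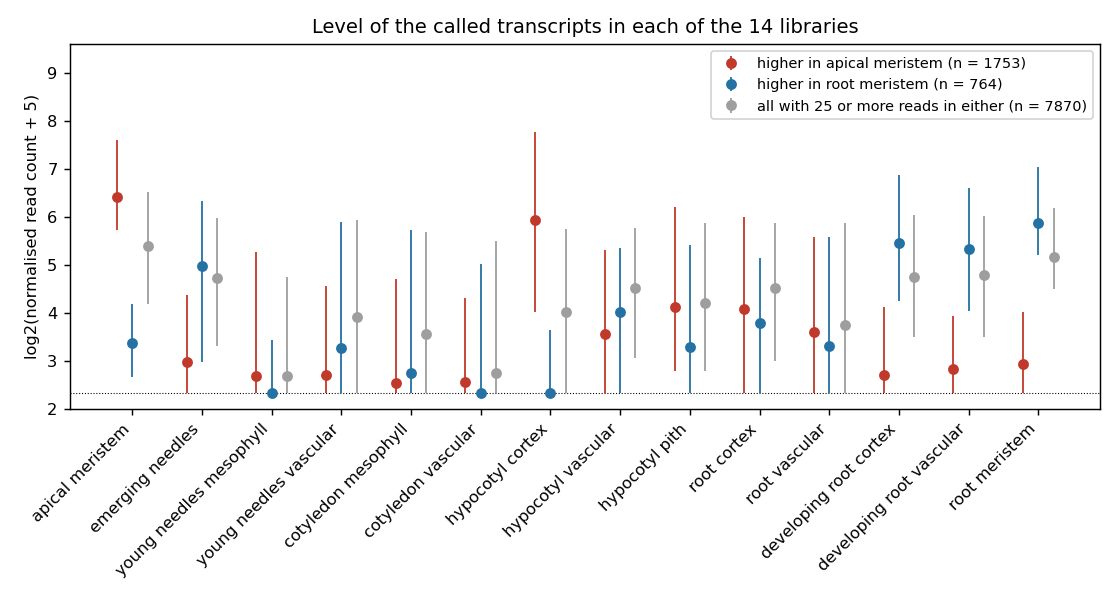
Median (point) and interquartile range (bar) of log2(normalised read count + 5) for transcripts higher in the apical meristem (red), higher in the root meristem (blue) and all with 25 or more reads in either (grey), in each of the 14 libraries. The dotted line is a count of 0. The red points are high in the apical meristem and hypocotyl cortex, and the blue points in the root meristem, both developing root libraries and emerging needles.

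Split by their level in both cortex libraries, the 1753 transcripts fell into 3 groups. In 755, hypocotyl cortex or root cortex was as high as the apical meristem or higher. This group had a median of 69.1 in the apical meristem, 225 in hypocotyl cortex, 42.3 in hypocotyl pith, 26.6 in root cortex and 0.652 in the root meristem, and it held 21.2% of apical meristem reads (exact interval 21.1 to 21.2%). In 435, the higher of the 2 cortex libraries was below the apical meristem by less than 4-fold. In the other 563, both cortex libraries were 4-fold or more below. This last group had a median of 112 in the apical meristem, 3.76 in hypocotyl cortex, 2.96 in root cortex, 3.54 in emerging needles and 4.56 in the root meristem, and it held 20.5% of apical meristem reads (20.4 to 20.6%). The 563 are the transcripts higher in the apical meristem that were scarce in both cortex libraries, and unigene20028 and unigene35145 belong to them. Of the 1753, 136 had no read in either cortex library.

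Transcripts of the apical meristem whose reads may come from hypocotyl cortex or root cortex were marked by a rule of size. All of the 237 transcripts with 200 or more reads in hypocotyl cortex, and all of the 203 in root cortex, also had reads in the apical meristem. The exact 95% intervals of these shares start at 98.5% and 98.2%. They treat transcripts as independent draws, which they are not, and do not measure spread between libraries. The lowest ratio was 6.68 apical meristem reads per 100 hypocotyl cortex reads and 1.84 per 100 root cortex reads. In the root meristem, 58 of the 237 (24.5%) and 26 of the 203 (12.8%) had no read. For the remaining libraries with 200 or more reads of a transcript, the share with no read in the apical meristem ran from 0.983% (emerging needles) to 12.1% (root vascular tissue). The apical meristem library is about 2 times as deep as either cortex library, at 203 reads per 100 of hypocotyl cortex and 182 per 100 of root cortex.

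The 5th percentile of the read ratio was used as the share of a library to set against the apical meristem reads. A share that is the same for all transcripts cannot exceed the lowest ratio, so the percentile errs towards more marks. It was 9.87% for hypocotyl cortex and 4.45% for root cortex, and 0 for both in the root meristem. At these shares 7.32% of apical meristem reads would be accounted for. A transcript was marked when the 2 shares together equalled 50% or more of its apical meristem reads. By that rule 82 of the 1753 (4.68%) were marked, against 97 of the 4428 transcripts with 25 or more reads in the apical meristem (2.19%). Hypocotyl cortex alone marked 69 and root cortex alone 8. The 82 had a median of 69.1 in the apical meristem, 1268 in hypocotyl cortex, 62.2 in root cortex and 0.652 in the root meristem, and held 1.64% of apical meristem reads (exact interval 1.62 to 1.66%). In the root meristem both shares were 0, so the rule could mark none of the 764 transcripts higher there, and their lack of marks is no comparison.

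The number of marked transcripts depended on the rule, and a share taken from the low end of the read ratios limits it in advance. A small number is therefore no measure of how many reads were carried over. With the 25th percentile, 16.6% of hypocotyl cortex and 18.0% of root cortex reads, 158 of the 1753 were marked, and with the lowest ratio 38. When a transcript was marked for a value in either cortex library of 4 times that in the apical meristem or more, 262 were. When the shares were subtracted from the apical meristem reads, 1575 transcripts were higher in the apical meristem and 872 in the root meristem. For 1325 of the 1753 (75.6%) the shares came to under 10% of the apical meristem reads. With any other of the 10 vascular, ground, pith and emerging needle libraries as the source, 1 transcript was marked for emerging needles and 0 for the 9 others. The share was 0 for young needle mesophyll, cotyledon vascular tissue, root vascular tissue and developing root cortex, so these could mark none. It was 2.10% for emerging needles and at most 0.464% for the rest. At 4.61%, the root meristem as source marked 39 of the 4428 transcripts, against 71 for hypocotyl cortex and 16 for root cortex. The 4-fold rule keeps it from marking any of the 1753. Whether reads were carried over was not tested, and a transcript expressed in both tissues gives the same read ratio.

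**Figure D4:**
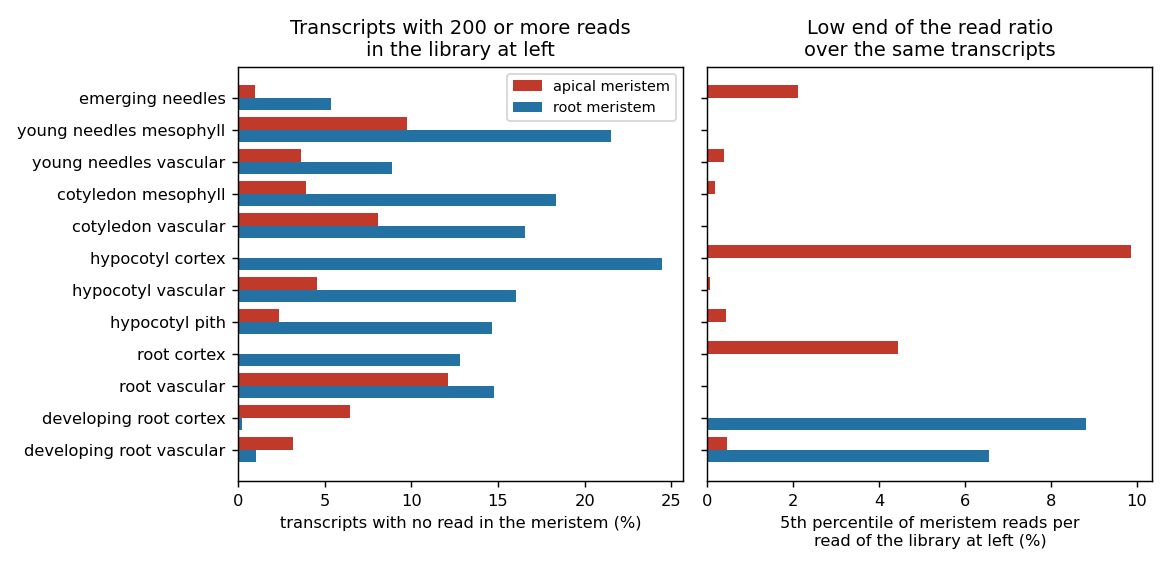
For transcripts with 200 or more reads in each library named at left, the percentage with no read in the apical meristem (red) or the root meristem (blue) is on the left panel, and the 5th percentile of meristem reads per read of that library, as a percentage, on the right. Hypocotyl cortex and root cortex have no such transcript absent from the apical meristem and, among the 12 libraries shown, the largest red ratios, at 9.87% and 4.45%, while the developing root libraries have the largest blue ratios.

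Abundant transcripts followed the same split. Of the 10 most abundant in the apical meristem, 5 were among the 10 most abundant in hypocotyl cortex and 4 in root cortex, while the root meristem shared 2 of its own 10 with each. In total 9 of those 10 were called higher in the apical meristem, 7 in plain CPM, and 4 of the 9 were higher still in hypocotyl cortex or root cortex. None of the 10 was marked. Of the 10 most abundant in the root meristem, 1 was called higher there and 2 were called higher in the apical meristem.

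Transcripts higher in the root meristem were shared mostly with the developing root, the tissue that the root meristem forms. Their median normalised read count was 5.32 in the apical meristem, 53.5 in the root meristem, 39.0 in developing root cortex and 35.2 in developing root vascular tissue, and in older root it was 8.88 in cortex and 4.96 in vascular tissue. Over all 7870 the medians were 21.9 in developing root cortex, 22.8 in developing root vascular tissue, 17.8 in root cortex and 8.50 in root vascular tissue. Developing root cortex was the highest of the other 12 libraries for 155 of the 764 (20.3%, against 9.45% of the 7870) and developing root vascular tissue for 109 (14.3%, against 8.48%). In 275 of the 764 a developing root library was as high as the root meristem or higher, and in 68 both were 4-fold or more below it. Only 13 had no read in both. Of the 764, 24 were 4-fold or more higher in the root meristem than in each of the 13 other libraries. The counts of 275, 68, 13 and 24 were not set against a share over all transcripts.

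At the low end of the read ratio, the developing root libraries stood to the root meristem much as the cortex libraries stood to the apical meristem. Of 433 transcripts with 200 or more reads in developing root cortex, 1 had no read in the root meristem, and of 597 in developing root vascular tissue, 6 had none. The 5th percentile of the read ratio was 8.80% and 6.55%. Higher up the ratios parted, with 25th percentiles of 60.7% and 57.8%, against 16.6% and 18.0% for hypocotyl cortex and root cortex in the apical meristem. In the apical meristem, 28 of the 433 and 19 of the 597 had no read. The same reservation holds for these pairs, and reads shared between them were not tested.

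Emerging needles, the youngest organ of the shoot, held a smaller share of the apical set than of the root set. Of the 1753 transcripts higher in the apical meristem, 414 (23.6%) had 25 or more reads in emerging needles, and of the 764 higher in the root meristem, 455 did (59.6%). The share was 50.7% over all transcripts with 25 or more reads in the apical meristem and 63.8% over those with 25 or more in the root meristem. Both sets thus lay below their own background, the apical set far below and the root set slightly. Emerging needles were as high as the meristem or higher for 60 of the 1753 and for 177 of the 764. They were the highest of the other 12 libraries for 128 of the 764 (16.8%, against 12.3% of the 7870), second to developing root cortex. For 96 of the 764, emerging needles were the only one of the 8 other shoot libraries with 25 or more reads. The counts of 60, 177 and 96 were not set against a share over all transcripts.

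**Figure D5:**
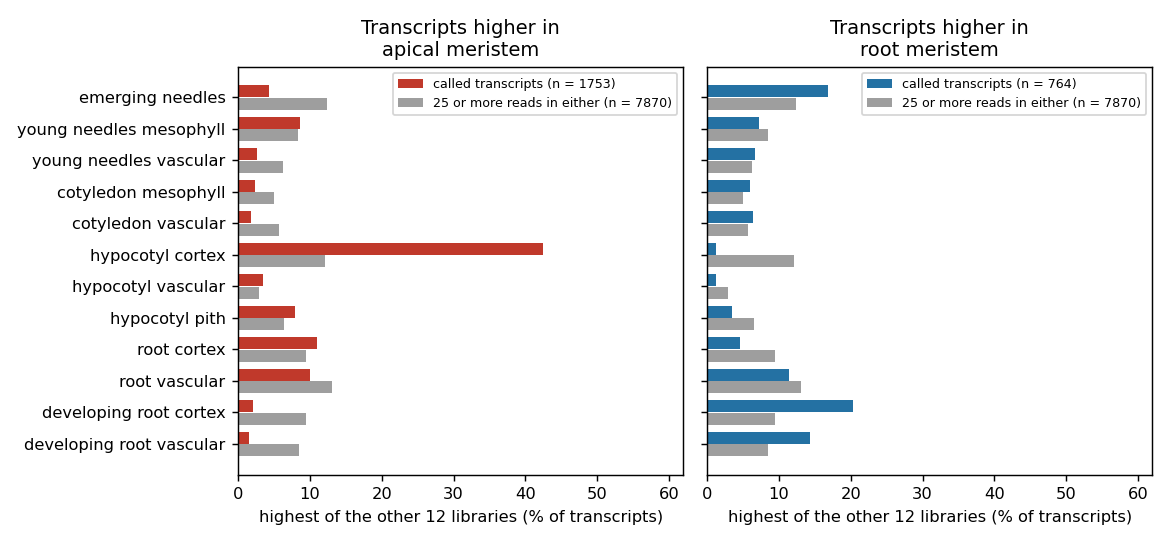
Percentage of transcripts for which each of the other 12 libraries was the highest, for those higher in the apical meristem (red, left), those higher in the root meristem (blue, right) and all with 25 or more reads in either meristem (grey). Hypocotyl cortex stands out on the left with 42.5% against 12.02%, and developing root cortex and emerging needles lead on the right.

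Whole profiles again placed the developing root libraries nearest the root meristem, while for the apical meristem root cortex came before hypocotyl cortex. Over 19816 transcripts with 25 or more reads in any library, the Spearman correlation across transcripts between the apical meristem and the root meristem was 0.575. The apical meristem correlated at 0.557 with root cortex, 0.534 with hypocotyl cortex, 0.481 with developing root vascular tissue and 0.443 with emerging needles. The root meristem correlated at 0.791 with developing root vascular tissue, 0.787 with developing root cortex, 0.631 with emerging needles, 0.525 with root cortex and 0.183 with hypocotyl cortex. Root cortex was thus near both meristems, and hypocotyl cortex near the apical meristem only. Transcripts are not independent replicates and the libraries differ in depth, so these values are descriptions.

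Whether the difference between the meristems follows the one between root and shoot was examined in the 10 vascular and ground tissue libraries, which the comparison of the meristems does not use. In a limma fit of 4 root and developing root libraries against 6 needle, cotyledon and hypocotyl libraries, with tissue class as a term, 195 of 11163 transcripts were higher in root (1.75%) and 186 lower (1.67%) at an adjusted p under 0.05. Of the 1007 transcripts higher in the apical meristem that were tested there, 2 were higher in root (0.199%) and 75 lower (7.45%). Of the 547 higher in the root meristem that were tested, 53 were higher in root (9.69%) and 0 lower (3 lower at an unadjusted p under 0.05, with edgeR calling 0 lower and DESeq2 1). Of the calls higher in root, 27.2% belonged to the root meristem set and 1.03% to the apical meristem set. Of the calls lower in root, 0% belonged to the root meristem set and 40.3% to the apical meristem set. These shares also reflect set size, with 1007 and 547 of the 11163 tested in the apical and root meristem sets. Over the 6070 tested transcripts with 25 or more reads in either meristem, 2.27% were higher in root and 1.38% lower. The shares of 7.45% and 9.69% lay above both backgrounds, each in the direction of the set's own axis. Most tested transcripts of each set were not called. The 10 libraries come from 5 organs, 2 of the root and 3 of the shoot, and the fit treats the 2 libraries of an organ as independent, so its p-values may be too small. With organ means in their place, 54 transcripts of the apical meristem set were lower in root (5.36%, against 0.797% of all tested) and 0 higher, and 28 of the root meristem set were higher (5.12%, against 0.600%).

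The 75 transcripts lower in root came almost all from the group with cortex values as high as the apical meristem, with 73 of its 516 tested transcripts called (14.1%). Since hypocotyl cortex is 1 of the 6 shoot libraries, that group was partly chosen on the same values. Of the 222 tested transcripts with both cortex libraries 4-fold or more below the apical meristem, 0 were called in either direction by limma, with 12 higher and 12 lower in root at an unadjusted p under 0.05. For these edgeR called 0 higher and 1 lower, and DESeq2 called 1 higher and 8 lower. Hypocotyl cortex and root cortex were then both left out of the fit. Of 760 tested transcripts of the apical meristem set, 59 were lower in root (7.76%, against 1.18% of all tested) and 2 higher. Of these 59, 58 belonged to the group with cortex values as high as the apical meristem (381 tested). So did all 54 found lower in root with organ means. Of 511 tested transcripts of the root meristem set, 45 were higher in root (8.81%, against 1.38%). The count of 2 higher in root was 10 without hypocotyl cortex, 11 of 990 without developing root cortex (where 1.13% of all tested were), 4 without the vascular library of the developing root, 13 with DESeq2 and 0 with edgeR. The count of 75 was 41 with edgeR and 49 without developing root cortex. The count of 53 was 22 without developing root cortex, 31 without hypocotyl vascular tissue and 24 without the vascular library of the developing root. With 25 added before the logarithm the counts were 44 and 18, and with no filter 26 and 10.

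The direction was less even when all members were counted. In the 10 libraries of the fit, the mean level of the 1753 transcripts was higher in root for 43.9% and higher in shoot for 52.8%, where 69.2% of the 7870 were higher in root. In the 8 vascular and ground libraries without hypocotyl cortex and root cortex, it was higher in root for 50.0% and higher in shoot for 38.1%, against 69.8% and 27.3% of the 7870. For the 764 the shares in the 8 libraries were 81.0% in root and 17.9% in shoot. Which axis was higher for more of the apical meristem set thus turned on these 2 libraries, and the root meristem set was mostly higher in root, on a background in which most transcripts were.

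Transcripts that set both meristems apart from the vascular and ground tissues, developing root included, were also counted. In 131 of the 2814 transcripts with 25 or more reads in both meristems, each meristem was 2-fold or more above all 10 libraries. In 5 of them each was 4-fold or more above. Between the meristems 86 of the 131 lay within 2-fold. Emerging needles were also 2-fold or more above the 10 libraries for 16 of the 131. For comparison, 1050 of the 4428 transcripts with 25 or more reads in the apical meristem were 2-fold above the 10 libraries there. In the root meristem it was 527 of 6256.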

How the data were processed

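Expression was measured in 14 pine seedling tissues, 1 library each, by pyrosequencing of amplified cDNA from laser-microdissected cells. Per the submitters' processing notes, FastQC, BWA and edgeR were used (versions, reference assembly and counting rule: not given in the sources used here). Values deposited by the authors are a normalised signal over 23493 transcripts. The values show it to be CPM in which each library total was scaled by a factor (0.716 in the apical meristem, 1.31 in the root meristem). Divided by the smallest value above 0 of its column, each value came out whole within 0.001 (100% in all 14 columns), so reads could be recovered from the deposited signal. The design had assumed plain CPM.

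Of the 14 libraries, the 2 meristems were compared by a rule of size with no test (4-fold on value + 5, 25 or more reads in the higher library). These 25 reads stand for 33.2 in the apical meristem and 16.3 in the root meristem. Root against shoot was fitted with limma 3.58.1 (R 4.3.3), with its prior following mean level and tissue class as a term, on log2(value + 5) of transcripts that reached 10 in 3 or more of the 10 libraries, with Benjamini-Hochberg adjustment over all tested. edgeR 4.0.16 and DESeq2 1.42.0 on recovered reads were alternatives, and the scripts were tested on simulated data. Counting intervals are exact (Clopper-Pearson, 95%) and absent transcripts have a limit of 3 reads per library. Named transcripts are the 2 largest log2 differences in each direction, on the apical side among those not marked for cortex reads. The comparison, its rules and the sets were chosen with earlier results of these data known. Marker and pathway lists could not be used, as the identifiers carry no gene names.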

Additional observations from a re-analysis of the deposited data

Results flagged for a closer look

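The 4 named transcripts were screened in the 4 root and the 6 shoot libraries of the root against shoot fit, on log2(value + 5), for a library far from the others of its group. Of 8 sets, 3 had such a value. The transcripts were chosen for their large differences, and several of these libraries had no read of them. A chance rate of about 1 in 20 independent sets therefore does not apply. unigene20028 had a normalised read count of 5.92 in root cortex, from 2 reads, and none in the 3 other root libraries. unigene35145 had 8.88 in root cortex, from 3 reads, and none in the 3 other root libraries. unigene9106 had 1034 in developing root cortex, far above the 3 other root libraries, as in the root meristem.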

How the results depend on the processing

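The numbers of transcripts higher in the apical meristem and higher in the root meristem, 1753 and 764, were 1892 and 1262 with 1 added before the logarithm, 717 and 139 with 25 added, 2497 and 2543 at 2-fold, 1111 and 134 at 8-fold, 589 and 333 with 100 reads as the minimum, 1330 and 1860 in plain CPM, 1628 and 1608 after quantile normalisation, 1408 and 1702 without the 10 most abundant transcripts of each library, and 1493 and 494 with a value of 40 in place of 25 reads, an alternative chosen after the data were seen. Other settings stayed within 1.5 times, among them an equal draw of reads (1763 and 740). Subtracting shares from both meristems gave the same 1575 and 872 as from the apical meristem alone, because the root meristem shares were 0. The named transcripts stayed past the 4-fold rule under each setting that gave a value. The 82 marked transcripts were 158, 38 and 262 under other rules, 1 with emerging needles as the source and 0 with each of the 9 others. Some of those 9 had a share of 0 and could mark none. The 195 transcripts higher and 186 lower in root were 54 and 67 with 25 added, 29 and 50 with no filter, 438 and 708 with DESeq2, 166 and 141 with edgeR, 127 higher with DESeq2 size factors in limma, 112 lower without hypocotyl cortex and root cortex, 67 and 89 with organ means, and 118 and 137 with organ as a random block (estimated correlation within organs 0.0845), the last 3 settings chosen after the data were seen. With 1 library left out they ran from 83 (without hypocotyl vascular tissue) to 198 higher, and from 95 (without developing root cortex) to 185 lower. The cause of these shifts was not tested. The settings for levels in the other libraries, plain CPM included, were also chosen after the data were seen. Depth limits absent transcripts to under 3.99 in the apical meristem and 1.96 in the root meristem. No paired analysis was possible because the labels give no replicate numbers and each meristem had 1 library.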
